A study of Mus musculus with 8 samples.

Results

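The 10 genes described here encode parts of the desmosome, chosen by name from the deposited gene table: the desmocollins DSC2 and DSC3, the desmogleins DSG2 and DSG3, desmoplakin (DSP), plakoglobin (JUP), the plakophilins PKP1, PKP2 and PKP3, and PERP. All 10 were found, among 58304 genes kept. Desmosomes are spot junctions that rivet neighbouring epithelial cells together. Desmocollins and desmogleins are cadherins that reach across the gap between the cells and bind each other there. On the inner face plakoglobin and the plakophilins hold the cadherin tails, and desmoplakin ties this plaque to the keratin filaments. In epidermis these junctions give mechanical strength, and their makeup shifts as keratinocytes move from the basal layer outwards.

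The study compared expression in wounds that received rFGF4, which is fibroblast growth factor 4 made as a recombinant protein, with that in wounds that received the buffer PBS. The labels describe C57BL/6 mice of 6 to 8 weeks with skin taken from the 2 mm around the wound at day 6, in 4 libraries for each treatment and with no other allele or agent named. The table does not match that description, since 58304 of the 58304 identifiers kept are human Ensembl identifiers and 0 are mouse. The labels name no human cells, so the groups below are the libraries labelled PBS (columns named C) and the libraries labelled rFGF4 (columns named FGF4), and no value is attributed to mouse skin. Nothing says that the libraries of a group came from separate animals or cultures, so p-values measure only the spread between these libraries, which may be technical.

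The libraries held 62044121 to 73680756 estimated counts. Of 9 keratinocyte markers 9 had a mean FPKM of at least 1, with KRT5 at 721 to 1093 FPKM, and so did all 5 markers of simple epithelium, summing to 1144 to 1256 FPKM in the PBS and 1057 to 1249 FPKM in the rFGF4 libraries. Among the differentiated keratinocyte markers KRT10, IVL and FLG reached that level, LOR was at 0, and the list summed to 24.7 to 27.8 and 22.2 to 25.6 FPKM. Fibroblast markers reached it in 0 of 7 cases (sums of 0.776 to 0.864 and 0.411 to 0.517 FPKM), muscle markers in 0 of 6, with MYH6 and MYH7 at 0, and melanocyte markers in 0 of 4, with TYR at 0. Endothelial markers reached it in 1 of 5 cases, CDH5, with sums of 1.86 to 3.09 and 3.08 to 4.09 FPKM. Leucocyte markers reached it in 1 of 5, CD68, with PTPRC at most at 0.0106 FPKM. The part of these low signals in the results below was not tested. In RNA from many cells, fewer cells of a type and less RNA per cell cannot be told apart.

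FPKM, in which the fragments of a gene are divided by its length and by the depth of the library, was used to compare levels between genes. CPM, the depth-scaled counts with no division by length and with TMM factors, was used to compare libraries. All 10 genes were above a mean FPKM of 1 and were tested. In the PBS libraries JUP had the highest level, at a mean of 155 FPKM, followed by PKP3 (84.4), PERP (68.9), PKP1 (65.0), DSG2 (62.5), DSP (58.9), DSG3 (35.5), DSC3 (20.8), PKP2 (17.03) and DSC2 (3.34). The ranges of neighbours in this order overlapped from PERP to DSP, and those of the other neighbours did not. In the rFGF4 libraries the order was the same but for PKP1 (39.7 FPKM), which stood below DSG2 (52.7) and DSP (49.9), and PKP2 (17.7), which stood above DSC3 (15.4). Over all 8 libraries JUP stood at the 98.3 percentile of tested genes and DSC2 at the 26.0 percentile.

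In all, 4 of the 10 genes fell in the libraries labelled rFGF4, namely DSC2, DSC3, DSG3 and PERP. None rose. Both desmocollins were among them, 1 of the desmogleins, and no plakophilin. With edgeR's quasi-likelihood test at an adjusted p of 0.05, 4.54% of the 11536 tested genes were lower and 5.49% higher. The median log2 fold change of the 10 was −0.26, with 9 of 10 negative, beside 0.0015 and 49.7% negative over all tested genes. The 10 were chosen with earlier results of these data known, so the comparisons with all tested genes are a description. At an unadjusted edgeR p under 0.05, 5 were lower and 0 higher, beside 11.6% and 13.5% of tested genes. The numbers were again 5 and 0 with DESeq2, which called 7.33% of tested genes lower and 8.51% higher, and with limma on log2(FPKM + 1), which called 5.10% and 4.94%. With limma on log2(TPM + 1) 3 were lower and 0 higher, beside 3.69% and 2.81% of tested genes. In CPM, 5 of the 10 (the 4 named and PKP1) had all rFGF4 libraries below all PBS libraries, which held for 9.26% of tested genes. The reverse held for 0 of the 10 and for 10.1% of tested genes.

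**Figure D1:**
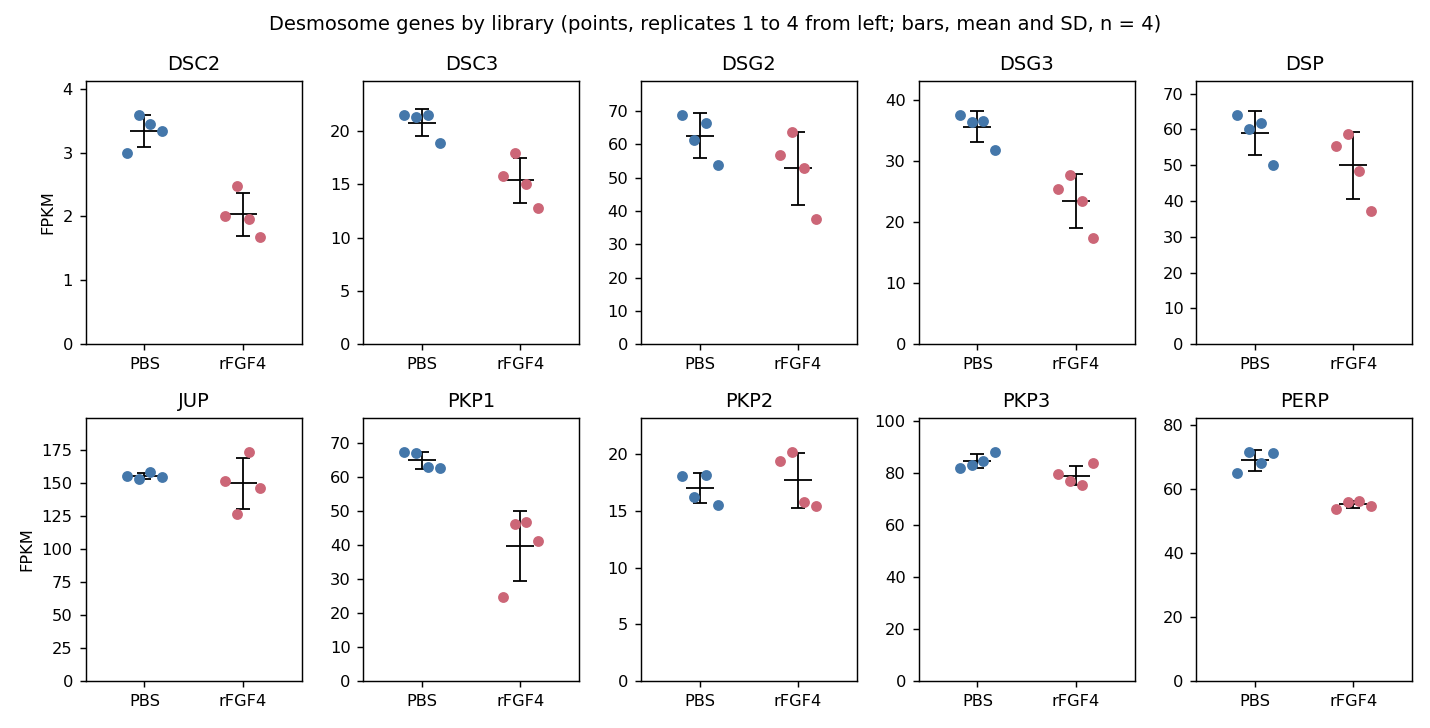
FPKM of each desmosome gene (vertical axes from 0, scaled per gene) in the 4 PBS and 4 rFGF4 libraries, as points with mean and SD. The groups do not overlap for DSC2, DSC3, DSG3, PKP1 and PERP, and they overlap for the other 5 genes.

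The desmocollins were both lower. DSC2, the desmocollin found in nearly all tissues with desmosomes (chr18:31058840-31102425, minus strand), stood at 2.99, 3.58, 3.44 and 3.34 FPKM in PBS replicates 1 to 4 and at 2.01, 2.48, 1.95 and 1.68 FPKM in rFGF4 replicates 1 to 4. The groups were clear of each other, and rFGF4 replicate 4 was the lowest library. In CPM the means were 49.9 ± 4.03 and 30.8 ± 4.16 (SD, n = 4), and the log2 fold change was −0.69 (SE 0.11, adjusted p = 0.0057 by edgeR), or 0.618-fold. This was the smallest p among the 10 genes, and the fall passed in all 21 alternative analyses.

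DSC3, the desmocollin of stratified epithelia that is strongest in the basal layers (chr18:30989365-31042815, minus strand), was lower too, by a smaller fold. Its levels were 21.5, 21.3, 21.5 and 18.9 FPKM in the PBS libraries and 15.8, 17.9, 15.0 and 12.8 FPKM in the rFGF4 libraries. PBS replicate 4 was low in its group and still above every rFGF4 library. The log2 fold change was −0.41 (SE 0.09, edgeR adjusted p = 0.0191), from 191 ± 9.71 to 144 ± 15.7 CPM (SD, n = 4). The call ended when 1 library was left out, with an edgeR adjusted p of 0.0568, 0.0616 or 0.0520 without PBS replicate 1, 2 or 3 and of 0.0512 or 0.0589 without rFGF4 replicate 1 or 3. It also ended with limma on TPM (adjusted p = 0.0887).

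Of the desmogleins, DSG3 fell and DSG2 did not pass. DSG3, the basal-layer desmoglein and the target of autoantibodies in pemphigus vulgaris (chr18:31447741-31478702, plus strand), was at 37.4, 36.4, 36.6 and 31.8 FPKM in the PBS and at 25.3, 27.6, 23.5 and 17.3 FPKM in the rFGF4 libraries. The lowest PBS library was above the highest rFGF4 library. CPM fell from 237 ± 14.4 to 158 ± 25.8 (SD, n = 4), or −0.58 on the log2 scale (SE 0.12, adjusted p = 0.0181 by edgeR). Without PBS replicate 1 or 2 the adjusted p was 0.0542 or 0.0570, without rFGF4 replicate 3 it was 0.0524, and with limma on TPM 0.0657.

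DSG2, the desmoglein of simple epithelia and heart that proliferating keratinocytes also make (chr18:31498177-31549008, plus strand), stood at 68.7, 61.4, 66.5 and 53.6 FPKM in the PBS libraries. In the rFGF4 libraries it stood at 56.9, 63.6, 52.9 and 37.7 FPKM. The groups overlapped, with rFGF4 replicate 2 above 2 of the PBS libraries and rFGF4 replicate 4 far below all others. The log2 fold change was −0.23 (SE 0.14, edgeR adjusted p = 0.356), and −0.11 without rFGF4 replicate 4. The difference between the fold changes of DSG3 and DSG2 was not tested.

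All 7 desmosomal cadherin genes lie side by side on chromosome 18, in the order DSC3, DSC2, DSC1, DSG1, DSG4, DSG3 and DSG2 along coordinates 30989365 to 31549008 of the table. The 4 genes at the ends of this row carried the signal and the 3 in the middle were nearly silent. DSC1 and DSG1, the cadherins of the upper epidermal layers, had 0 counts in 6 of 8 libraries and at most 7 and 8 counts in the others, all labelled PBS. DSG4, best known from hair follicles, had 0 counts in 4 libraries and at most 8. These values are below a floor of 12 counts, that is 3 fragments worth about 4 counts each, so no fold is given. Antisense genes overlap DSC2 and DSG2, and 2 unnamed gene models overlap PKP2. Each held at most 0.388% of the counts of its partner in any library.

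**Figure D2:**
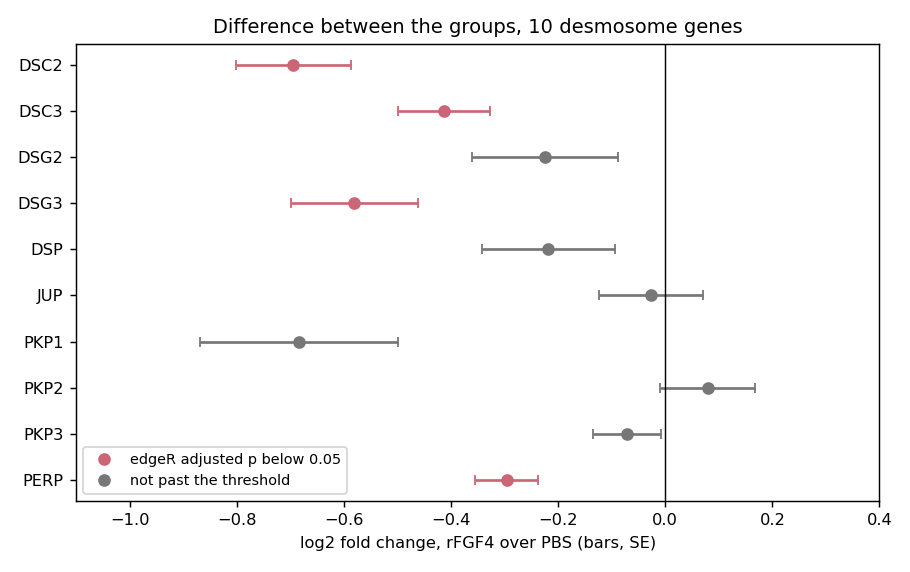
Log2 fold change of each desmosome gene (horizontal axis, rFGF4 over PBS, edgeR) with its SE. DSC2, DSC3, DSG3 and PERP passed the threshold; PKP1 lay as far from 0 as DSC2 with a wider SE.

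No plaque gene passed the threshold, and the differences between their fold changes were not tested. PKP1, the plakophilin of the suprabasal epidermis that bundles desmosomal proteins into large plaques (chr1:201283452-201332993, plus strand), stood at 67.3, 67.0, 63.0 and 62.6 FPKM in the PBS libraries and at 24.7, 46.3, 46.7 and 41.3 FPKM in the rFGF4 libraries. All rFGF4 libraries were below all PBS libraries, and rFGF4 replicate 1 was well below the other 3. The log2 fold change of −0.68 (SE 0.18) missed the threshold (edgeR adjusted p = 0.0527), with 482 ± 19.0 and 300 ± 78.8 CPM (SD, n = 4). Without rFGF4 replicate 1 the change was smaller, −0.51 (SE 0.06), and passed (edgeR adjusted p = 0.0062). It also passed with DESeq2 (adjusted p = 0.00368), with limma on log2(FPKM + 1) (adjusted p = 0.0412), log2(FPKM + 0.1) (0.0429) or TPM (0.0465), and without TMM factors (0.0462).

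PKP2, the plakophilin of simple epithelia, basal keratinocytes and heart (chr12:32790745-32896840, minus strand), was the gene of the 10 with a positive value, 0.08 on the log2 scale (SE 0.09, edgeR adjusted p = 0.644). It stood at 18.1, 16.3, 18.2 and 15.6 FPKM in the PBS and at 19.4, 20.2, 15.8 and 15.5 FPKM in the rFGF4 libraries. rFGF4 replicates 1 and 2 were above all PBS libraries and the other pair were not. PKP3, which is present through all living epidermal layers and binds most other desmosomal proteins (chr11:392614-400260, plus strand), was at 81.7, 83.2, 84.7 and 88.01 FPKM in the PBS libraries. It was at 79.4, 76.8, 75.5 and 83.8 FPKM in the rFGF4 libraries. The groups overlapped by 1 library, rFGF4 replicate 4, and the log2 fold change was −0.07 (SE 0.06, edgeR adjusted p = 0.551).

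JUP, plakoglobin, is shared by desmosomes and adherens junctions and is a close relative of beta-catenin (chr17:41754604-41786931, minus strand). It stood at 156, 153, 158 and 154 FPKM in the PBS libraries and at 152, 127, 173 and 147 FPKM in the rFGF4 libraries. The PBS libraries were close together, and the rFGF4 libraries lay on both sides of them, with replicate 2 low and replicate 3 high. Its CPM varied by 0.91% (SD over mean) in the PBS and by 14.4% in the rFGF4 libraries. The log2 fold change was −0.03 (SE 0.10, edgeR adjusted p = 0.905), and 0.06 (SE 0.07) without rFGF4 replicate 2.

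Desmoplakin, the link to keratin (DSP, chr6:7541617-7586714, plus strand), stood at 63.9, 60.0, 61.7 and 50.03 FPKM in the PBS libraries. In the rFGF4 libraries it stood at 55.2, 58.7, 48.5 and 37.2 FPKM. The order of the libraries resembled that of DSG2: replicate 4 was lowest in both groups and the groups overlapped. The log2 fold change of −0.22 (SE 0.12) did not pass (edgeR adjusted p = 0.327), and the size was −0.12 without rFGF4 replicate 4.

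PERP, a tetraspan membrane protein that p53 and p63 induce and that desmosomes of stratified epithelia need (chr6:138088505-138107419, minus strand), showed a small fall with little spread. It stood at 64.9, 71.6, 68.0 and 71.4 FPKM in the PBS and at 53.8, 55.9, 56.3 and 54.8 FPKM in the rFGF4 libraries. The lowest PBS library was above the highest rFGF4 library. In CPM the means were 346 ± 20.1 and 282 ± 9.82 (SD, n = 4), or −0.30 on the log2 scale (SE 0.06, adjusted p = 0.0155 by edgeR), which is 0.814-fold. The call ended without PBS replicate 2 (edgeR adjusted p = 0.0575) or rFGF4 replicate 1 (0.0524).

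The number of these genes called as lower changed when 1 library was left out, and so did the number over all tested genes. For these genes it was 2 without PBS replicate 1, 1 without PBS replicate 2 and 2 without rFGF4 replicate 3. It was 3 or 4 without any other library. Over all tested genes it was 338, 275 and 311 in the first 3 runs, beside 524 with all libraries. In the other runs it was 327 to 547. In the first 3 runs the log2 fold change of DSC3 was −0.40, −0.40 and −0.41 (main run −0.41). That of DSG3 was −0.56, −0.57 and −0.59 (main run −0.58). PERP had −0.28 without PBS replicate 2 (main run −0.30). The gene that passed without PBS replicate 2 was DSC2.

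**Figure D3:**
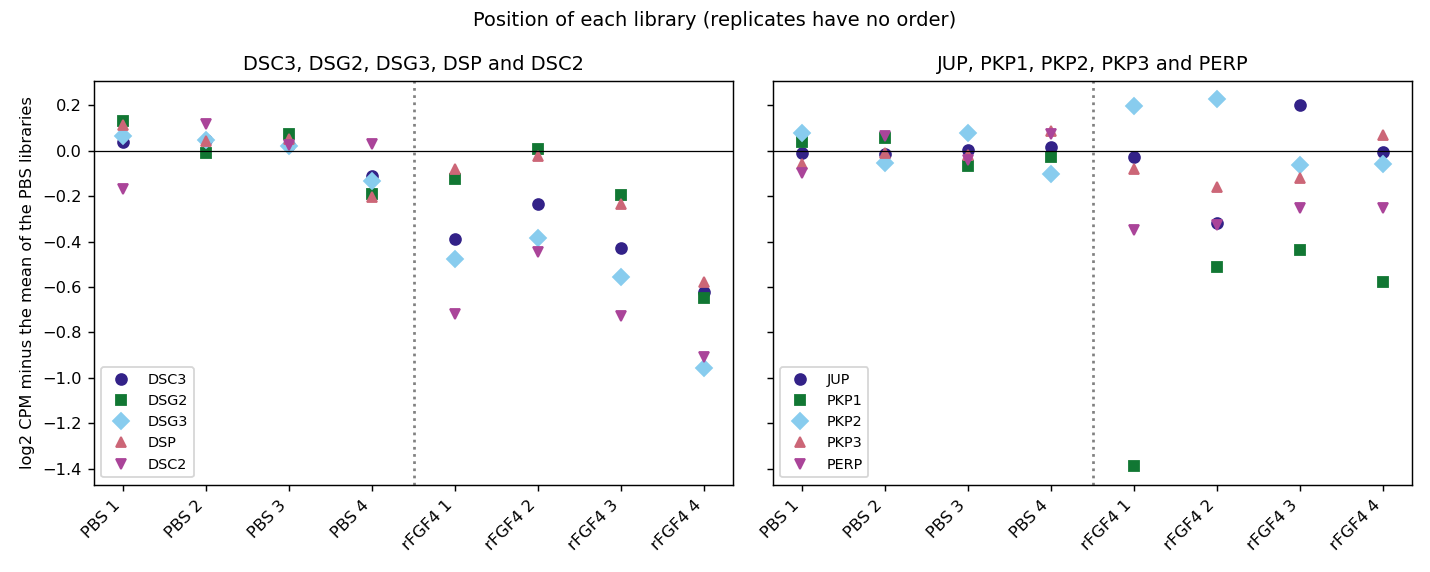
Log2 CPM of each gene minus its mean over the PBS libraries (vertical axis), for each library (horizontal axis). In the left panel rFGF4 replicate 4 is lowest for all 5 genes; in the right panel PKP1 in rFGF4 replicate 1 stands below every other point, and PKP3 shows no low value in rFGF4 replicate 4.

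DSC3, DSG2, DSG3 and DSP had their lowest library by CPM in common within each group, and PKP1, JUP, PERP and PKP3 shared it in neither group. In log2 CPM, deviations of DSC3, DSG2, DSG3 and DSP from their group means correlated with each other at 0.95 to 0.98. With those of PKP3 they correlated at −0.93 to −0.97. The values of these genes are therefore not separate observations. rFGF4 replicate 4 was the lowest of all 8 libraries in CPM for 5 genes, DSC2, DSC3, DSG2, DSG3 and DSP, and PBS replicate 4 was the lowest PBS library for DSC3, DSG2, DSG3, DSP and PKP2. For PKP3 the replicate 4 library was the highest in both groups. Over all tested genes the replicate 4 libraries also stood apart by gene length, taken in relative terms from the ratio of count to FPKM. In rFGF4 replicate 4 the median log2 CPM, relative to the PBS mean, was 0.20 for the 2871 shortest genes and −0.16 for the 2871 longest. In PBS replicate 4 it was 0.08 and −0.06, and in the other 6 libraries it was between −0.04 and 0.03 for the shortest and between −0.02 and 0.07 for the longest genes. DSC2 was at the 95.8 percentile of relative length, DSP at the 90.6, DSC3 at the 80.1 and PKP2 at the 75.4 percentile. PKP1 was at the 68.1, DSG2 at the 66.7, DSG3 at the 61.7, JUP at the 54.5, PERP at the 45.7 and PKP3 at the 40.5 percentile. In rFGF4 replicate 4 DSG3 lay at −0.96 and DSG2 at −0.65 in log2 CPM relative to the PBS mean, where the trend fitted at their lengths, relative to the mean of all 8 libraries, was −0.03 and −0.05. For DSC2 the values were −0.91 and −0.19, and for DSP −0.58 and −0.16.

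**Figure D4:**
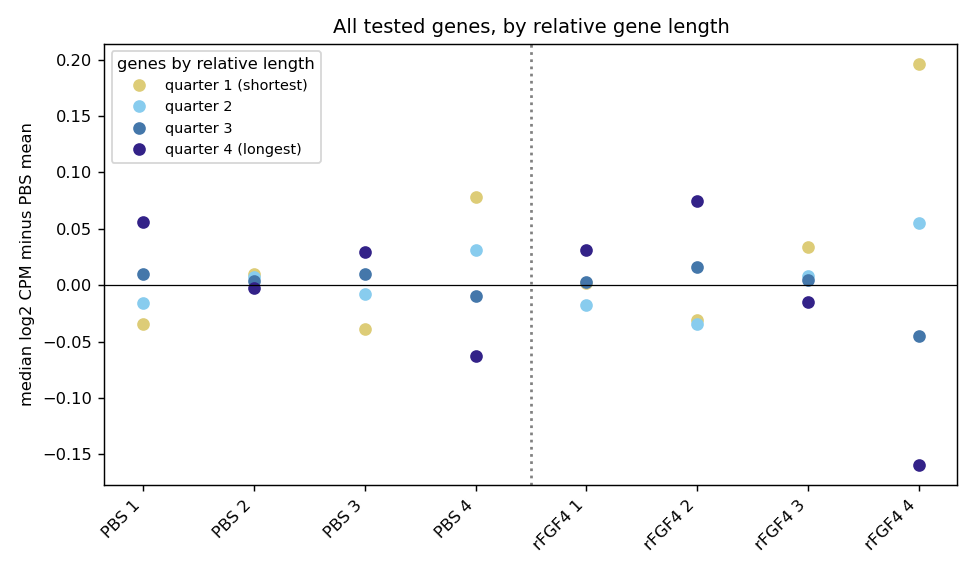
Median log2 CPM minus the PBS mean (vertical axis) over all tested genes, split into 4 sets of equal size by relative gene length, for each library. The sets separate most in rFGF4 replicate 4, from 0.20 (shortest) to −0.16 (longest), with PBS replicate 4 next.

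The 4 falls were nearly as large with this trend taken out. With each library's trend with length removed, an analysis added after seeing the data, the log2 fold changes were −0.68 (SE 0.09) for DSC2, −0.40 (SE 0.06) for DSC3, −0.58 (SE 0.11) for DSG3 and −0.29 (SE 0.05) for PERP. All 4 passed (edgeR adjusted p of 0.00259, 0.00358, 0.0109 and 0.00724). Over all genes tested in that run 631 were lower and 748 higher, beside 524 and 633 in the main run. Without both replicate 4 libraries, also added afterwards, the 4 changes were −0.62, −0.39, −0.52 and −0.29. All 4 passed (edgeR adjusted p of 0.0260, 0.0186, 0.00763 and 0.0402), beside 429 lower and 511 higher over all tested genes. What part the trend has in the falls was not tested. DSP (−0.20, SE 0.08, edgeR adjusted p = 0.136) and DSG2 (−0.22, SE 0.12, edgeR adjusted p = 0.285) did not pass after removal of the trend. Without both replicate 4 libraries they had −0.18 and −0.17 and did not pass (edgeR adjusted p of 0.156 and 0.194).

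Ratios between related genes within a library do not depend on its depth. They are given here as a description, with no test. DSG3 made up 36.3 ± 1.07% of the summed FPKM of DSG2 and DSG3 in the PBS libraries (SD, n = 4; range 35.3 to 37.2%). In the rFGF4 libraries it made up 30.8 ± 0.49% (30.3 to 31.5%). The ranges were far apart beside their width, although the level of each gene varied widely among the rFGF4 libraries, from 55.0 to 91.2 FPKM for the sum. DSC2 made up 13.8 ± 1.20% of the desmocollin FPKM in the PBS libraries (12.2 to 15.0%) and 11.6 ± 0.37% in the rFGF4 libraries (11.3 to 12.2%), and the nearest libraries of the groups, at 12.20 and 12.16%, almost met. By counts in place of FPKM the means were 20.7 and 17.6%.

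Among the plakophilins, PKP1 made up 39.0 ± 1.41% of the summed FPKM in the PBS libraries and 28.9 ± 6.21% in the rFGF4 libraries. The range was 37.7 to 40.3% in the first and 19.98 to 33.8% in the second, where rFGF4 replicate 1 was the lowest. PKP3 made up 50.7 ± 1.73% and 58.1 ± 4.93%, and PKP2 10.2 ± 0.79% and 13.1 ± 2.22%. PKP3 was thus the largest by FPKM in both groups, whereas by counts PKP1 was the largest in the PBS libraries, with 47.8% beside 38.0% for PKP3, and PKP3 in the rFGF4 libraries, with 44.9% beside 36.4%. The sum of the plakophilins was 166 to 167 FPKM in the PBS libraries, where the genes varied more than their sum, and 123 to 143 FPKM in the rFGF4 libraries.

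**Figure D5:**
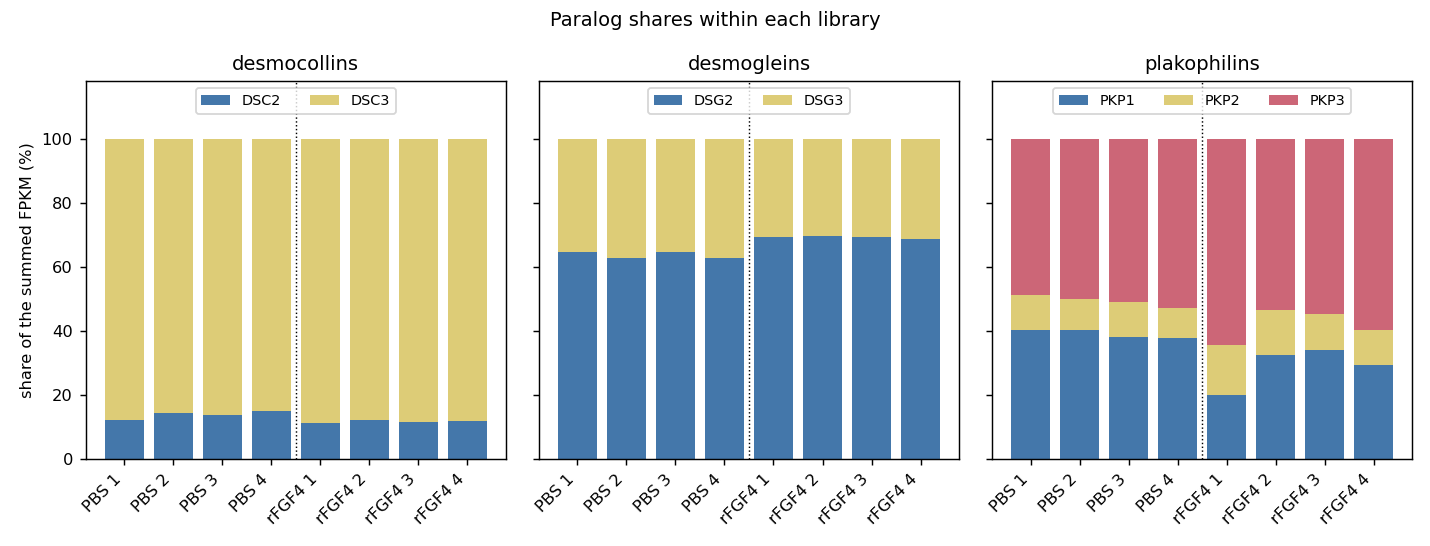
Share of each gene in the summed FPKM of the desmocollins, desmogleins and plakophilins (vertical axis, %), by library. DSG3 takes 35.3 to 37.2% of the desmogleins in the PBS and 30.3 to 31.5% in the rFGF4 libraries; PKP1 takes the least in rFGF4 replicate 1, at 19.98% of the plakophilins.

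Other genes of the junction and its anchors were read from lists. Over all tested genes the shares lower and higher were 4.54% and 5.49% by edgeR at the adjusted p. They were 11.6% and 13.5% at the unadjusted edgeR p, 7.33% and 8.51% by DESeq2, and 5.10% and 4.94% by limma on log2(FPKM + 1). Counts in the lists below stand beside these shares. Of 9 other desmosome and plaque genes 5 were tested and 0 passed by edgeR, DESeq2 or limma, with 1 lower and 0 higher at an unadjusted edgeR p under 0.05 and a median log2 fold change of −0.04. CTNND1, p120 catenin, had −0.04 (SE 0.34) and PPL, periplakin, had −0.06 (SE 0.07). The lower gene was CTNNB1 (−0.15, SE 0.06). CTNND1 and CTNNB1 are also in the adherens junction list, so the lists are not separate. Of 15 tested keratins, the filaments that desmoplakin anchors, 1 rose and 1 fell (median −0.0040). At an unadjusted edgeR p under 0.05, 5 keratins were lower and 1 higher, and the numbers were 4 and 1 by DESeq2 and 3 and 1 by limma on log2(FPKM + 1). KRT18, a keratin of simple epithelia, rose by 0.74 (SE 0.11, edgeR adjusted p = 0.00449), from 251 ± 22.9 to 421 ± 60.3 CPM (SD, n = 4). KRT15, a basal keratin, fell by 0.56 (SE 0.12, edgeR adjusted p = 0.0184). KRT14 and KRT5, the most abundant keratins here at 1026 and 910 FPKM, had −0.17 (SE 0.06) and −0.22 (SE 0.11) and did not pass.

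Of 16 tested genes known to act on desmosomes 1 fell and 1 rose (median 0.0072). The numbers lower and higher were 1 and 2 at an unadjusted edgeR p under 0.05, 1 and 1 by DESeq2 and 1 and 0 by limma on log2(FPKM + 1). PRKCD, a protein kinase C, fell by 0.51 (SE 0.12, edgeR adjusted p = 0.0284). SRC, a tyrosine kinase that acts on junction proteins, rose by 0.22 (SE 0.06, edgeR adjusted p = 0.0390). TP63, which encodes the master regulator of stratified epithelia, was not named by the rule for this list and is given since it induces PERP. Its log2 fold change was 0.03 (SE 0.19), and whether it has a part in the fall of PERP was not tested. The most abundant members were FLOT2 (48.4 FPKM), a flotillin of membrane rafts, with 0.04 (SE 0.08), and EGFR (35.9 FPKM), the receptor of epidermal growth factor, with 0.28 (SE 0.12), and neither passed.

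Of the 6 hemidesmosome genes, which fasten basal cells to the matrix below, 0 passed by edgeR or limma, 1 was higher by DESeq2, and 2 were higher and 0 lower at an unadjusted edgeR p under 0.05 (median 0.10). COL17A1 had 0.10 (SE 0.10) and ITGB4 had 0.20 (SE 0.07). Of the 10 adherens junction genes 1 fell, NECTIN4 (−1.43, SE 0.10, edgeR adjusted p = 0.000279), and 9 of 10 had a negative value, with a median of −0.12. In this list 3 were lower at an unadjusted edgeR p under 0.05 and 0 higher, and 2 of the list were lower by DESeq2 and by limma on log2(FPKM + 1). CTNNB1, counted among the plaque genes too, was among the 3. NECTIN1 (59.6 FPKM) and CDH3, P-cadherin (54.7 FPKM), had −0.18 (SE 0.06) and −0.12 (SE 0.07) and did not pass. Whether the desmosome genes differ from these lists was not tested.

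The genes outside the 10 whose CPM over the 8 libraries most resembled that of DSC2 were SERPINB13, a keratinocyte serpin (Pearson r of 0.990 on the log2 scale), PAPSS1, which makes the sulfate donor of the cell (0.989), EDIL3, a secreted integrin ligand (0.987), HBP1, a transcriptional repressor (0.985), and EXOC4, an exocyst subunit (0.984). The 8 libraries share the difference between the groups, so these values are a description only. SERPINB13 stood at 485 CPM in the PBS and 322 CPM in the rFGF4 libraries, and EXOC4 at 77.7 and 68.0 CPM.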

How the data were processed

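The table covers 8 RNA-seq libraries in 2 groups of 4. The submitters' processing notes name HISAT2 2.0 and StringTie 1.3.0 without saying which step each did. No build or annotation is named, and coordinates are those of the table. Per the file headers, the authors deposited FPKM and a count for each library. The deposited counts are whole numbers but were treated as estimated counts, because low values piled up at multiples of 4 (9781 entries at 4, 3485 at 3 and 1977 at 5), and no rounding was needed. Y-chromosome genes, XIST and TSIX were left out (521 of 58825 genes).

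The 11536 genes that reached a mean FPKM of 1 were tested two-sided with edgeR 4.0.16 in R 4.3.3 (TMM, glmQLFit, glmQLFTest), adjusted by Benjamini-Hochberg over all of them and called at 0.05. Changes are those of rFGF4 relative to PBS, and SE is the size the test statistic implies. CPM is scaled to the tested genes. DESeq2 1.42.0 and limma 3.58.1 were alternatives. Counts were simulated for this comparison over 11536 genes, with 50 genes set to each fold change. The test recovered 98% of the genes set to a 4-fold change, 74% at 2, 32% at 1.5 and 2% at 1.25. Fewer genes were changed there than were called in the data, so these shares need not carry over. Within-group pairs of libraries differed by far more than counting noise. The members and lists were chosen with earlier results of these data known. Named were all 10 members, the genes of the cadherin cluster, and from each other list the genes past the threshold and the 2 with the highest mean FPKM, with TP63 added afterwards. The 5 genes most like DSC2 were taken by Pearson correlation. Some members of the lists are not reported here.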

Additional observations from a re-analysis of the deposited data

Results flagged for a closer look

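DSC3 in PBS replicate 4 stood at 177 CPM, below the other 3 PBS libraries at 195 to 198 CPM. Its gap to the nearest of them was 0.847 of the range of the group, above the critical value of 0.829 for 4 samples. The 10 genes were checked in both groups, 20 sets in all, and chance flags about 1 set in 20.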

How the results depend on the processing

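Of 210 recomputed values of the 10 genes, 191 kept their direction and their side of the threshold. DSC2 passed in 21 of 21 alternatives, PERP in 19, DSG3 in 17, DSC3 in 15 and PKP1 in 6, and none of the other 5 passed in any. With 1 library left out, the log2 fold change ran from −0.48 to −0.35 for DSC3, −0.65 to −0.48 for DSG3, −0.33 to −0.27 for PERP, −0.78 to −0.51 for PKP1 and −0.11 to 0.059 for JUP, with the sign turned (0.0594) without rFGF4 replicate 2. The number of the 10 called lower ran from 1 to 4, and over all genes 275 to 547 were lower and 326 to 622 higher, beside 524 and 633. DESeq2 called 846 lower and 982 higher, and limma on TPM 324 higher. With limma on TPM, DSC3 (−0.46) and DSG3 (−0.64) did not pass and PKP1 (−0.77) did. PKP1 also passed without TMM factors (−0.70), with DESeq2 (−0.69) and with limma on log2(FPKM + 1) (−0.74) or log2(FPKM + 0.1) (−0.75). The cause was not tested. With the replicate number as a block, 4 of the 10 genes were lower and 0 higher, and 452 and 561 over all genes. In that run DSP had −0.23 (SE 0.06, edgeR adjusted p = 0.0897) and DSG2 −0.24 (SE 0.08, edgeR adjusted p = 0.142). Neither passed. The SE was smaller than without the block for every one of the 10 genes but PKP1 (0.19). Deviations of same-numbered libraries correlated at 0.14, 0.08, −0.02 and 0.21 for replicates 1 to 4. For replicates 1, 2 and 4 each library correlated best with its own number in the other group, and for replicate 3 neither did. The labels do not say that the numbers mark pairs, so the main test had no block. Whether the libraries are paired was not tested. By counts in place of FPKM, which weights longer genes more, DSG3 made up 34.4% of the desmogleins in the PBS and 29.1% in the rFGF4 libraries, DSC2 20.7 and 17.6% of the desmocollins, and PKP1 47.8 and 36.4% of the plakophilins. Changes under 2-fold were often missed on simulated counts, where 50 genes were set to each fold. Fewer genes were changed there than were called in the data, so the recovered shares need not hold here. The lack of a call for DSG2, DSP, JUP, PKP2 and PKP3, or for PKP1 in the main run, does not show that they were unchanged.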
